A study of Homo sapiens with 26 samples.

Results

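Regions bound by the glucocorticoid receptor (GR) are often found in groups along the genome, and the regions described here are those that form such groups. The authors' table of 10740 regions of 400 bp was sorted by chromosome and start. Neighbours whose starts lay at most 15 kb apart were joined into chains, and chains of 3 or more regions were kept. This gave 2114 regions in 560 chains, 19.7% of all regions. The rule used positions only and no measured value. Outside these chains were 1211 pairs and 6204 regions without a neighbour in reach.

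GR occupancy was measured by chromatin immunoprecipitation with sequencing (ChIP-seq) in A549, an established lung carcinoma epithelial cell line, to learn what NF-κB does to GR binding. All cells carried an adenovirus, which either made green fluorescent protein and served as control (Ad-GFP) or made the NF-κB inhibitor IκBαΔN (Ad-IκBαΔN), and all were kept in serum-free medium before the experiment. Each virus had an untreated group (NS), a group given 300 nM of the synthetic glucocorticoid budesonide (Bud) and a group given budesonide with 1 ng/ml interleukin-1β (IL1B+Bud), each for 1 h. The labels name 2 libraries per group, but the values used hold 1 number per region and group, so no difference below has a replicate check and none carries a p-value or an error. The signal is read as mean coverage per base, worked out from the authors' log2(signal + 1) values. A region is called higher or lower from a log2 difference of 1 on, which is 2-fold on that scale and understates the fold where signal is low. Member counts are on the deposited scale unless another is named. Expression was not measured in these values, so the cell type was not checked against markers. Positions are in hg38, counted from 1.

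GR is a hormone-activated transcription factor that binds DNA at glucocorticoid response elements (GREs) and also near other factors. NF-κB is released when signalling from cytokine receptors removes its inhibitor IκBα, and it then binds κB motifs near inflammatory genes. IκBαΔN is a truncated form of the inhibitor that holds NF-κB back. Inducible genes often have several enhancers in a row, and the regions of such a group may carry different motifs.

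The sequences below are shown because members of 1 chain can carry different motifs. The NFKBIA, BIRC3 and ERRFI1 chains each hold a region with a κB motif and a region with a GRE, and one further chain of each kind is shown. Sequence is from hg38, 5′ to 3′ on the strand given, and capitals mark the motif match. The printed windows around the κB matches lie at chr14:35341419-35341474 (minus strand), chr11:102317326-102317381 (minus), chr1:8075709-8075764 (plus) and chr14:103109060-103109115 (plus), in the order printed.
NFKBIA chain, κB: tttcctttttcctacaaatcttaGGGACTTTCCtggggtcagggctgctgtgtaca
BIRC3 chain, κB: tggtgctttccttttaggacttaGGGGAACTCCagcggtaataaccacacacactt
ERRFI1 chain, κB: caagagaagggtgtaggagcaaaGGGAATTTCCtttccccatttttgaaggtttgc
TNFAIP2 chain, κB: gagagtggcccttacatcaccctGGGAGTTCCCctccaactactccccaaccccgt
The printed windows around the GRE matches lie at chr14:35374534-35374594, chr11:102312868-102312928, chr1:8071052-8071112 and chr13:44849607-44849667, all on the plus strand and in the order printed. The matches differ from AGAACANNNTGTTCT in 2, 1, 2 and 1 of its fixed bases. All but one of these regions are intergenic. The region of the TNFAIP2 chain is intronic but not within TNFAIP2, 12.5 kb from the transcription start site of that gene.
NFKBIA chain, GRE: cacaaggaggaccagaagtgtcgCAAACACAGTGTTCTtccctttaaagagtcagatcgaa
BIRC3 chain, GRE: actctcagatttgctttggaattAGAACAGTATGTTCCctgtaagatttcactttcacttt
ERRFI1 chain, GRE: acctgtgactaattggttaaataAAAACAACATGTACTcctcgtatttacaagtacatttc
NUFIP1 chain, GRE: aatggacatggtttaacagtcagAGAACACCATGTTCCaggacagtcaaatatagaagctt

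Most chains were short. Of the 560 chains, 340 had 3 members, 122 had 4, 72 had 5 or 6 and 26 had 7 or more. The longest in members was that of NFKBIA, which encodes IκBα, with 12. A chain spanned a median of 14.2 kb, from 1.75 to 72.1 kb, and the median distance between neighbouring starts was 4.86 kb. The smallest distance was 473 bp, so no members overlapped. Chains were named for the protein-coding gene (GENCODE 44) whose transcription start site (TSS) lay nearest to any member, which does not say that they act on it. A TSS lay within 1 kb of a member in 59 chains and within 100 kb in 419, and in 492 chains every member was nearest to the same gene. Of the members 48.8% were intronic and 48.9% intergenic, against 48.8% and 47.7% of regions outside chains, and 2.98% against 3.95% lay within 1 kb of a TSS. The share of a chromosome's regions that were members ran from 8.78% on chromosome 4 to 30.1% on chromosome 19.

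The distance limit cut through a continuous spread of distances, with 108 neighbouring pairs 14 to 15 kb apart and 88 pairs 15 to 16 kb apart. Just inside it was the pair in the chain of 6 named for IFNGR1, a receptor for interferon-γ, with starts 14980 bp apart. In Ad-GFP its members had signals of 51.8 and 8.84 with Bud and 206 and 47.8 with IL1B+Bud. Just outside was a pair near EED, a Polycomb subunit gene, 15005 bp apart, with 24.4 and 18.5 with Bud and 23.8 and 19.4 with IL1B+Bud.

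GR signal was higher in chains than outside them in every group. In Ad-GFP the median signal was 8.22 in members and 7.45 outside in untreated cells, 27.8 and 20.5 with Bud, and 59.3 and 43.1 with IL1B+Bud. In Ad-IκBαΔN it was 8.03 and 7.72, 27.0 and 20.4, and 28.2 and 22.5. With IL1B+Bud in Ad-GFP the median was higher the longer the chain. It was 41.0 at regions without a neighbour, 49.5 in pairs, 55.2 in chains of 3 and 77.6 in chains of 7 or more, with quartiles of 48.0 and 149 in the last. The quartiles of all these sets overlapped. The median GC content of a region also went up with chain size, from 44% at regions without a neighbour to 48.0% in chains of 7 or more, and its part in the signal was not tested.

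**Figure D1:**
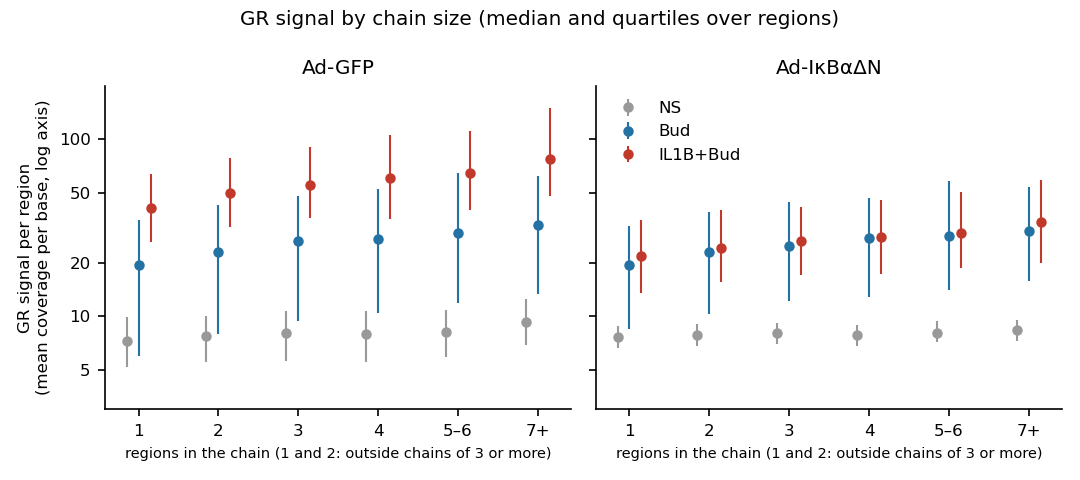
GR signal per region (mean coverage per base, log axis) by the number of regions in the chain, with Ad-GFP on the left and Ad-IκBαΔN on the right; each point is a median and each bar runs from the lower to the upper quartile of the regions, not an error. With IL1B+Bud in Ad-GFP the median was 41.0 at regions without a neighbour and 77.6 in chains of 7 or more, and the quartiles overlap.

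Budesonide alone gave more GR signal at most members. In Ad-GFP 1362 of 2114 members (64.4%) were at least 2-fold higher with Bud than untreated, against 57.9% of all regions, and 110 (5.20%) were lower, against 8.14%. The median log2 difference was 1.62 in members and 1.37 over all regions. In Ad-IκBαΔN 1427 members (67.5%) were higher and 9 (0.43%) lower, against 59.3% and 1.06% of all regions. In 161 chains every member was higher in Ad-GFP, and in 189 in Ad-IκBαΔN. Summed over its members, the signal of a chain was a median of 4.16 times the untreated sum in Ad-GFP and 4.13 times in Ad-IκBαΔN. How large the general gain is depends on the scale of each group. Coverage times 400 bp fell on steps of 1 in both untreated and Bud-treated Ad-GFP cells. Dividing out these steps therefore leaves the Ad-GFP counts above as they are. Other scalings reduced the gain. In Ad-GFP the members split into 658 higher and 548 lower with the groups re-centred to a common median. They split into 530 and 452 by quantile normalization, and into 412 and 720 when the authors' unchanged class was the centre. The Ad-IκBαΔN splits were 590 and 413, 512 and 406, and 336 and 613. Re-centring and quantile normalization take off any gain that most regions share. Members of the unchanged class had median Bud differences of 2.31 log2 in Ad-GFP and 2.18 in Ad-IκBαΔN as deposited. Centring on that class takes off its own gain, so these splits do not test whether budesonide raised GR signal in general.

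The chains with the highest median budesonide difference in Ad-GFP were those of FGL1, LURAP1L, DGCR6, GNLY and KRT18, with medians of 4.35, 4.34, 4.27, 4.24 and 4.11 log2. The LURAP1L chain lies in an intron of that gene, with 3 members within 3.70 kb. Its last member had signals of 10.8 untreated, 310.5 with Bud and 276 with IL1B+Bud in Ad-GFP, while Ad-IκBαΔN cells had 9.23, 239 and 216. The GNLY chain, named for the gene of a cytolytic granule protein, held a member with 18.4, 365 and 239.8 in Ad-GFP, while Ad-IκBαΔN cells had 8.97, 292 and 402. In the chain of KRT18, an epithelial keratin gene, the first member had 9.18, 294 and 227, and 5.75, 230.2 and 171. At these members of the LURAP1L, GNLY and KRT18 chains both treated groups of each virus stood far above its untreated group. There IL1B+Bud was within 2-fold of Bud in Ad-GFP.

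When IL1B was added to budesonide in Ad-GFP, 1014 members (48.0%) were at least 2-fold higher and 117 (5.53%) lower, against 48.9% and 6.07% of all regions. The median log2 difference was 0.90 in members and 0.92 over all regions, so members and other regions had nearly the same response. How the regions of the authors' table were selected was not examined. Any that entered it only through IL1B+Bud in Ad-GFP would be higher in that group by selection. Chains differed in how many of their members responded. In 119 chains (21.3%) every member was higher, in 306 some were, in 76 no member was 2-fold apart and in 59 at least 1 was lower and none higher. Chains with both higher and lower members numbered 25. The split moved with the scale of the groups. Re-centring gave 710 higher and 630 lower members, and quantile normalization 543 and 439. Centring on the unchanged class gave 855 and 300, and dividing out the steps in which the values fall gave 566 and 892. Chains with all members higher then numbered 62, 27, 91 and 42, and chains with all members lower 47, 30, 12 and 96. The median of all regions was -0.12, -0.13, 0.42 and -0.61 on these 4 scales, so a chain's distance from 0 depends on the scale.

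The 4 kinds of chain differed in other measures too. Chains whose members were all higher had median sums of signal of 27.8 untreated, 33.6 with Bud and 313 with IL1B+Bud in Ad-GFP. Chains with lower and no higher members had 194 with Bud, 108 with IL1B+Bud and 26.6 untreated. A member lay within 1 kb of a TSS in 20 of 119 of the former (16.8%) and in 2 of 59 of the latter (3.39%). At least 1 κB motif was found in 93 of the 119 (78.2%) and in 3 of the 59 (5.08%), and at least 1 GRE in 24 (20.2%) and 35 (59.3%). The kinds were set by the same GR signals, so their own differences in signal are a description.

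Neighbours in a chain responded alike, but far from identically. The share of the variance of the log2 difference that lay between chains (the one-way intraclass correlation, 0 where members of a chain are no more alike than members of different chains and 1 where they are identical) was 0.43 for added IL1B in Ad-GFP. It was 0.26 for Bud against NS in Ad-GFP, 0.27 for the same in Ad-IκBαΔN and 0.21 for added IL1B in Ad-IκBαΔN. It does not respond to a shift that all regions share, which is nearly all that re-centring, centring on the unchanged class and dividing out the steps apply, so its value of 0.43 under these was given by their construction. After quantile normalization, which is no such shift, it was 0.44 for added IL1B in Ad-GFP. Within a chain the log2 differences for added IL1B in Ad-GFP spanned a median of 2.24, with a median SD of 1.06 over members against 1.72 over all members. By chain size the intraclass correlation was 0.45 in chains of 3, 0.51 in chains of 4, 0.35 in chains of 5 or 6 and 0.29 in chains of 7 or more. Once the median difference of each region's class was taken off, an alternative chosen after seeing the data, 0.14 was left.

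This agreement was lower at larger distances. For added IL1B in Ad-GFP the Pearson correlation between neighbouring regions was 0.47 at distances below 1 kb (170 pairs), 0.52 at 1 to 2 kb (389), 0.48 at 2 to 5 kb (846), 0.39 at 5 to 10 kb (786) and 0.36 at 10 to 15 kb (574). Beyond the limit it was 0.22 at 15 to 50 kb (2078 pairs), 0.11 at 50 to 200 kb (2774) and 0.01 above 200 kb (3099). Distances up to 15 kb take in the 1211 pairs on their own as well as the 1554 pairs inside chains. The pairs share the libraries of the groups compared, and a region can stand in 2 pairs. Neighbours inside chains of 3 or more had 0.47 and those in pairs on their own 0.40, at median distances of 4.86 and 4.99 kb. Untreated signal behaved otherwise, with a correlation between neighbours in Ad-GFP of 0.34 below 1 kb and still 0.25 above 200 kb.

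**Figure D2:**
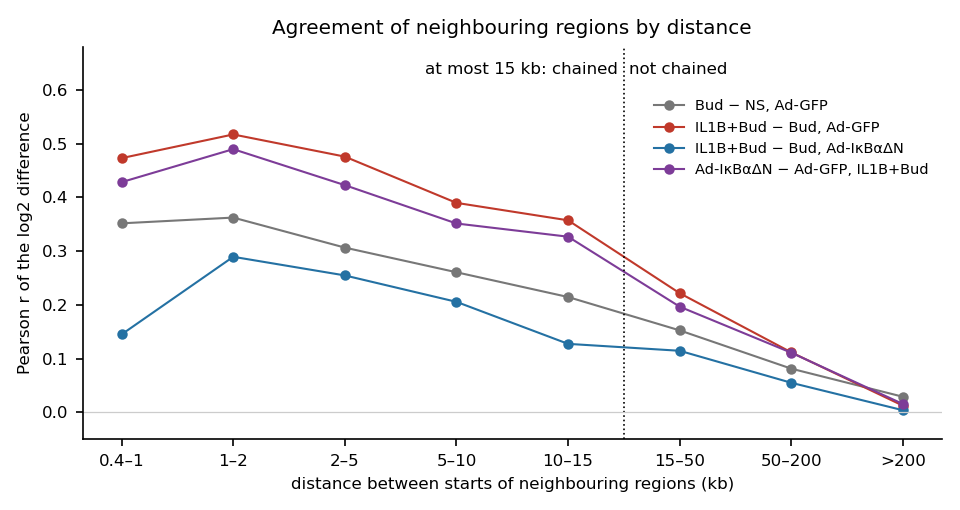
Pearson correlation of the log2 difference between neighbouring regions (vertical axis) by the distance between their starts in kb (horizontal axis), for 4 comparisons; the dotted line marks the limit of 15 kb. Points left of the line hold neighbours in chains of 3 or more together with pairs on their own. Added IL1B in Ad-GFP had 0.52 at 1 to 2 kb and 0.01 above 200 kb.

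The authors placed every region in a class. Of the members 867 were in the increasing, 714 in the unchanged and 533 in the decreasing class, 41.0%, 33.8% and 25.2%, against 40.3%, 31.3% and 28.4% outside. The sources used here do not say how the classes were made, and they may rest on these same signals. Of the chains 156 had members of 1 class, 88 increasing, 22 unchanged and 46 decreasing, while 309 had 2 classes and 95 all 3. Members of the same chain shared a class in 50.3% of 3449 pairs, against 34.6% of all pairs of members, and an increasing member met a decreasing one in 9.74% against 20.7%. Even so, 134 chains held both an increasing and a decreasing member.

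At several inflammatory genes every member of the chain was higher with IL1B. The chain with the highest median was that of TNFAIP2, a gene induced by tumour necrosis factor, with 3 members over 14.8 kb. The member with the κB motif printed above had signals of 5.62 untreated, 4.24 with Bud and 305 with IL1B+Bud in Ad-GFP, while Ad-IκBαΔN cells had 4.78, 8.24 and 24.4. The next had 17.3, 9.51 and 337, and 8.69, 11.3 and 20.9, and the third 4.80, 8.37 and 548, and 7.03, 15.2 and 23.5. Only IL1B+Bud in Ad-GFP was high at all 3, with log2 differences from Bud of 5.87, 5.01 and 5.87, and the chain's median was 3.42 at its lowest among the scalings.

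ICAM1, which encodes an adhesion molecule for leukocytes, had 4 members within 6.74 kb around its promoter, 2 of them with a κB motif. In order along the chromosome they had 2.88, 6.41, 4.72 and 5.08 with Bud and 90.8, 249, 193 and 53.3 with IL1B+Bud in Ad-GFP. In Ad-IκBαΔN the same members had 6.4, 11.7, 9.72 and 5.27 with Bud and 7.31, 15.6, 9.38 and 5.52 with IL1B+Bud. The Ad-GFP differences were 3.16 to 5.09 log2, and the Ad-IκBαΔN ones were all under 2-fold. IRF1, a transcription factor gene of the interferon response, had 4 members with 4.20, 4.03, 7.96 and 8.56 with Bud and 112, 214, 229 and 47.9 with IL1B+Bud. CCL2, a monocyte chemokine gene, had 4 with 7.24, 2.64, 4.5 and 23.8 with Bud and 251, 53.6, 49.2 and 387 with IL1B+Bud. Their chain medians were 4.82, 4.56 and 3.94 log2, and 2.53, 2.4 and 2.13 at their lowest among the scalings. Untreated signals in Ad-GFP were 5.93, 8.04, 6.9 and 3.76 for ICAM1 and 8.6, 11.2, 9.56 and 14.6 for CCL2. In the IRF1 and CCL2 chains 1 member each was at least 2-fold lower with Bud than untreated. Where Bud lay below the untreated signal, the folds for added IL1B rest in part on that.

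Longer chains of this kind were those of IRAK2, LIF and TNIP1. IRAK2 encodes a kinase of the interleukin-1 receptor pathway, and all 8 members of its chain, spread over 36.6 kb of its introns, were higher. Their log2 differences ran from 1.28 to 5.20. The highest member had signals of 10.4 untreated, 14.5 with Bud and 571 with IL1B+Bud in Ad-GFP, while Ad-IκBαΔN cells had 9.75, 16.6 and 28.7. LIF, a cytokine gene of the interleukin-6 family, had 8 of 8 members higher, from 2.02 to 4.1 log2, although 5 of them already stood at 21.3 to 47.1 with Bud. In the chain of TNIP1, which encodes a partner of the NF-κB-restraining protein A20, 8 of 9 members were higher. The exception, the first member, was nearest to GPX3 and had 31.2 with Bud and 54.6 with IL1B+Bud. A chain of 3 in an intron on chromosome 14 (35156038 to 35161647), whose nearest gene has no symbol, had 4.5, 4.48 and 4.00 with Bud and 162, 282 and 68.0 with IL1B+Bud. Its untreated signals were 4.88, 16.2 and 9.11 in Ad-GFP, and 2 of its 3 members were at least 2-fold lower with Bud. Its folds for added IL1B rest in part on these low Bud signals.

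SMAD3 and BCL3 had chains of 9 in which most members were higher. In that of SMAD3, which encodes a transcription factor of transforming growth factor-β signalling, 8 members were higher by 2.12 to 3.79 log2, and 1, at 47.2 with Bud and 63.9 with IL1B+Bud, was not. In that of BCL3, an IκB family gene, 7 of 9 were higher, and 6 carried a κB motif. Its first member, the farthest from BCL3, had 46.1 with Bud and 52.8 with IL1B+Bud. The chain of IL1A and IL1B, the genes of interleukin-1α and interleukin-1β, had 5 of 5 members higher, by 2.30 to 4.46 log2, 1 of them in the authors' decreasing class with 3.26 with Bud and 37.8 with IL1B+Bud. That member had 10.8 untreated, and 2 of the 5 were at least 2-fold lower with Bud than untreated.

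**Figure D3:**
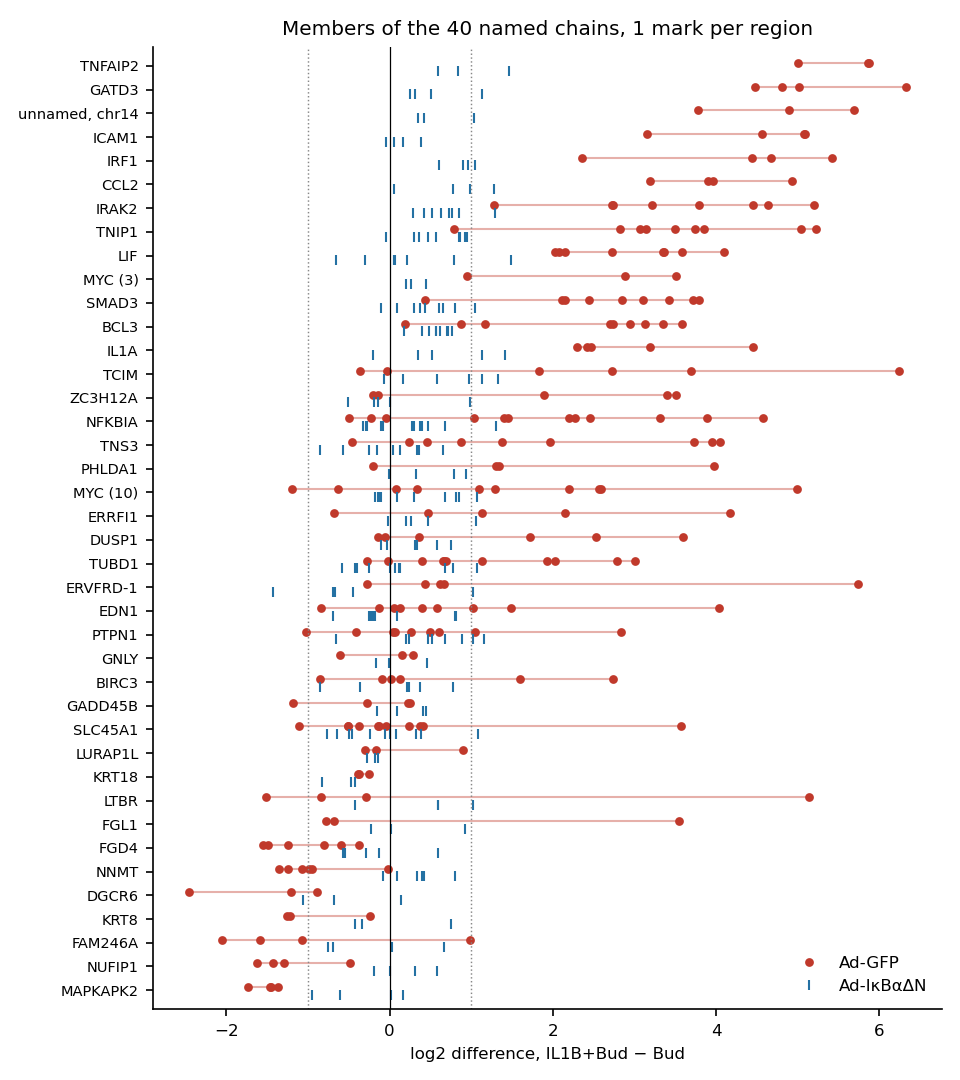
Deposited log2 difference between IL1B+Bud and Bud at each member of the 40 chains named by rule, ordered by the Ad-GFP median (1 line per chain, named for its nearest gene; MYC has 2 chains, of 3 and 10 members); circles are Ad-GFP, ticks Ad-IκBαΔN, and dotted lines mark 2-fold. TNFAIP2 stood highest with members from 5.01 to 5.87, and all 4 members of MAPKAPK2 lay below -1.

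In other chains regions that were higher with IL1B lay beside regions that were not 2-fold apart, and in a few beside lower ones. The NFKBIA chain ran over 72.1 kb, and its members differed from -0.50 to 4.57 log2 with added IL1B in Ad-GFP, 9 of 12 higher and none lower by 2-fold. Of its 4 members with a κB motif, 2 were higher, by 2.27 and 3.89 log2, and 2 were not, with -0.22 and -0.50. The last of these, 0.72 kb from the TSS, had the highest signal of the chain, 14.5 untreated, 871 with Bud and 614 with IL1B+Bud in Ad-GFP, while Ad-IκBαΔN cells had 9.04, 668 and 535. The member with the κB motif printed above had 9.31, 7.17 and 120, and 7.00, 9.03 and 23.8. That with the GRE had 9.20, 112 and 298, and 8.38, 94.0 and 88.5. Of the signal summed over the chain, 1279 with Bud and 2101 with IL1B+Bud in Ad-GFP, the TSS member thus held 871 and 614.

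BIRC3 encodes an inhibitor of apoptosis, and its chain had 6 members over 28.0 kb. The member at the TSS, with the κB motif shown above, had signals of 9.35 untreated, 47.7 with Bud and 324 with IL1B+Bud in Ad-GFP, while Ad-IκBαΔN cells had 8.26, 42.6 and 32.8. The member 11.0 kb upstream had 4.23, 211 and 213, and 7.13, 162 and 89.4. The GRE member had 4.26, 23.1 and 21.6, and the intronic one 4.13, 61.5 and 33.6 in Ad-GFP. A 2-fold difference with IL1B was found at 2 of 6 members, and the chain's median was 0.07, with -1.45 at its lowest among the scalings.

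Some genes of the glucocorticoid-induced list, ERRFI1, PHLDA1 and DUSP1, had such chains too. Other chains named for that list had fewer or no higher members with added IL1B in Ad-GFP. That of GADD45B had 0 of 4 members higher and 1 lower, that of FGD4 0 of 6 higher and 3 lower. That of EDN1 had 3 of 9 higher and 0 lower. ERRFI1 encodes a protein that restrains the epidermal growth factor receptor. At its GRE member the signals were 2.86 untreated, 183 with Bud and 114 with IL1B+Bud in Ad-GFP, while Ad-IκBαΔN cells had 7.56, 149 and 208. At its κB member, the next along, they were 4.84, 13.1 and 61.7, and 6.68, 13.2 and 15.4. The first member of the chain, with neither motif, had 5.74, 3.82 and 85.7. PHLDA1, a gene of a pleckstrin homology-like protein, had its κB member at 8.39, 3.35 and 67.6 in Ad-GFP. DUSP1, a gene of a phosphatase of MAP kinases, had 6 members. The outer ones, with 4.73, 9.41 and 30.3 with Bud, had 68.4, 59.4 and 102 with IL1B+Bud, and the inner ones, with 83.4, 287 and 161 with Bud, had 79.9, 367 and 145. The outer members were 1.72 to 3.60 log2 higher and the inner ones were not 2-fold apart. The medians of the ERRFI1, PHLDA1 and DUSP1 chains, 1.14, 1.32 and 1.04, turned to -0.40, -0.23 and -0.53 with the steps divided out.

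ZC3H12A encodes an endonuclease that degrades inflammatory mRNAs, and 3 of its 5 members were higher. Those 2 upstream with strong budesonide signal had 55.8 and 130 with Bud and 50.5 and 112 with IL1B+Bud, while the next pair had 5.72 and 6.60 with Bud and 75.4 and 79 with IL1B+Bud. The TSS lay between the members of that pair. LTBR, which encodes the lymphotoxin-β receptor, had a chain with one of the widest ranges, 6.66 log2 over 4 members. Its GRE member had signals of 7.1 untreated, 172 with Bud and 95.5 with IL1B+Bud in Ad-GFP, while Ad-IκBαΔN cells had 9.17, 149 and 304. The last, nearest to SCNN1A, a sodium channel subunit gene, had 9.02, 3.68 and 165, and 8.25, 8.76 and 13.7. In the chain of ERVFRD-1, an envelope gene of retroviral origin, 1 of 5 members was higher, with 0.86 with Bud and 98.4 with IL1B+Bud, and the range was 6.01 log2. That fold rests on a Bud signal below the untreated one of 6.12.

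**Figure D4:**
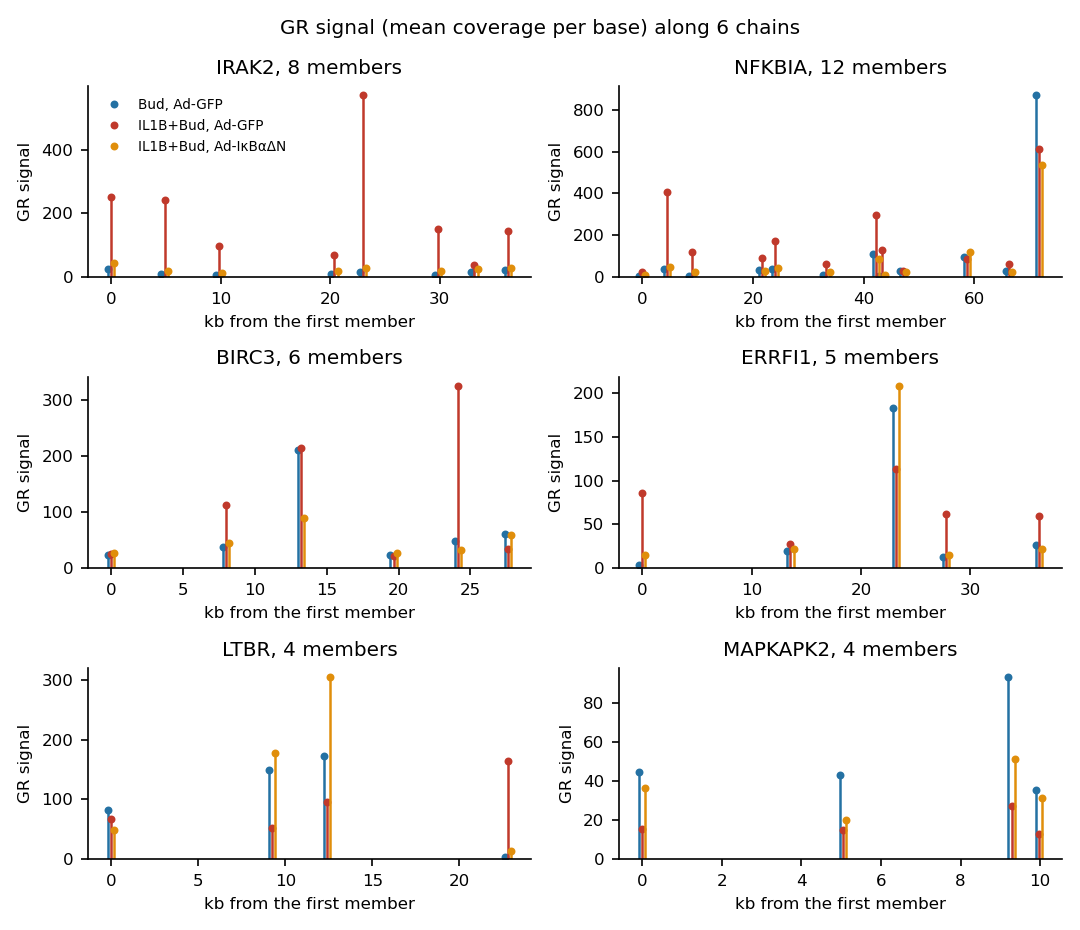
GR signal (mean coverage per base, vertical axis, from 0) of each member along 6 chains by its distance from the first member in kb; blue is Bud and red IL1B+Bud in Ad-GFP, orange is IL1B+Bud in Ad-IκBαΔN. On this deposited scale all 8 members of IRAK2 are higher with IL1B+Bud than Bud in Ad-GFP, all 4 of MAPKAPK2 lower, and the other chains hold members of both kinds or unchanged ones.

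The chain of NFKBIA had 12 members, those of SLC45A1 and TUBD1 11 and that of MYC 10. Of the 8 chains of 9 members, the 6 with the shortest span were named, those of BCL3, TNS3, SMAD3, TNIP1, PTPN1 and EDN1. The other two, of LDHAL6B and ANXA2, were left out by that order. The 11 members of the SLC45A1 chain all lay more than 100 kb from a TSS, between ERRFI1 and SLC45A1. Only its first member was 2-fold higher with added IL1B, with 3.75 and 55.6, while the strongest had 212 with Bud and 149 with IL1B+Bud. The 11 members named for TUBD1 differed from -0.28 to 3.01 log2, and the strongest pair had 279 and 425 with Bud and 612 and 420 with IL1B+Bud. The 9 members near PTPN1, a tyrosine phosphatase gene, went from 551 to 413 and from 8.01 to 63.2 in the same comparison at 2 of its members. EDN1, the gene of the vasoconstrictor endothelin-1, had 3 of 9 members higher and TNS3, an adhesion protein gene, 5 of 9, with chain medians of 0.40 and 1.37. The EDN1 median was below 0 under all 4 scalings, at -1.09 in the lowest, and that of TNS3 was -0.19 with the steps divided out.

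A few chains had less GR signal with IL1B. All members were at least 2-fold lower in 2 chains as deposited. One was that of MAPKAPK2, a gene of a kinase downstream of p38, with 4 members in its introns. They had 44.4, 43.1, 93.0 and 35.1 with Bud and 15.5, 15.0, 27.2 and 13.0 with IL1B+Bud in Ad-GFP, log2 differences of -1.46, -1.47, -1.74 and -1.37. In Ad-IκBαΔN the same members had 32.6, 39.5, 79 and 31.1 with Bud and 36.5, 19.9, 51.3 and 31.4 with IL1B+Bud, none 2-fold apart. The NUFIP1 chain, more than 100 kb from the TSS of that gene, had 3 of 4 members lower. Its GRE member printed above had signals of 5.52 untreated, 23.9 with Bud and 7.06 with IL1B+Bud in Ad-GFP, back near the untreated level, and 6.58, 23.7 and 36.1 in Ad-IκBαΔN. The chain of KRT8, the partner keratin of KRT18, had 2 of 3 members lower, at 99.6 and 72.0 with Bud and 42.0 and 29.6 with IL1B+Bud.

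A pair of chains of 6 members was lower in part. That of FGD4, a gene of a guanine nucleotide exchange factor for CDC42, had 3 of 6 members lower and the other 3 between -0.38 and -0.80 log2. That named for NNMT lies in introns of ZBTB16, a transcription factor gene, 78.4 kb or more from the NNMT TSS. It had 3 of 6 members lower, and its strongest had signals of 6.4 untreated, 469 with Bud and 222 with IL1B+Bud in Ad-GFP, while Ad-IκBαΔN cells had 6.11, 345 and 463. The medians of the MAPKAPK2, NUFIP1, KRT8, FGD4 and NNMT chains lay between -2.88 and -1.02 over the scalings, each highest as deposited. Every scaling lowered the median of all regions for added IL1B in Ad-GFP. That these chains stayed below 0 is therefore no check of their direction.

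With NF-κB inhibited fewer members were 2-fold apart when IL1B was added than in Ad-GFP. In Ad-IκBαΔN 149 members (7.05%) were at least 2-fold higher with IL1B+Bud than with Bud and 28 (1.32%) lower, against 9.65% and 0.94% of all regions. No chain had all its members higher, and in 406 of 560 no member was 2-fold apart. The median ratio of summed signals was 1.06, with 9 chains at 2 or more, against 1.88 and 270 chains in Ad-GFP. The median log2 difference was 0.17 in members and 0.26 over all regions. Re-centring gave 83 higher and 53 lower members, quantile normalization 12 and 25, the unchanged class as centre 97 and 44, and division by the steps 7 and 283, so these values do not fix its direction.

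Chain medians for added IL1B still went together in both viruses, with a Pearson correlation of 0.60 over 560 chains, although they varied more in Ad-GFP (SD over chains 1.44) than in Ad-IκBαΔN (0.41). Chains whose members were all higher in Ad-GFP had a median of 0.49 in Ad-IκBαΔN, and those with lower and no higher members -0.18. The regions compared are the same in both, and each group is 1 value per region.

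Set directly against Ad-GFP, Ad-IκBαΔN cells given IL1B+Bud had 1020 members (48.2%) at least 2-fold lower and 83 (3.93%) higher, against 46.5% and 5.97% of all regions. In 109 chains every member was lower. The intraclass correlation was 0.39. Re-centring left 26.0% lower and 431 members higher. Quantile normalization gave 518 lower and 397 higher, the unchanged class as centre 778 and 229, and division by the steps 508 and 441. With Bud alone both viruses were close. In Ad-IκBαΔN 58 members (2.74%) were higher than in Ad-GFP and 0 lower, against 4.02% and 0.0186% of all regions, and in 508 chains no member was 2-fold apart. Both comparisons share groups with those for added IL1B. Members of the increasing class had median signals of 8.50 untreated, 9.49 with Bud and 81.9 with IL1B+Bud in Ad-GFP. In Ad-IκBαΔN they had 8.04, 12.2 and 18.3. Regions that entered the authors' table only through IL1B+Bud in Ad-GFP would be lower in Ad-IκBαΔN by selection. How the regions were selected was not examined, so these counts are a description.

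The strongest region of a chain often changed with IL1B. With Bud in Ad-GFP the strongest member held a median of 50.4% of the summed signal of its chain, and 42.0% in chains of 5 or more. With IL1B+Bud these shares were 45.2% and 35.8%. The strongest member was the same with Bud and with IL1B+Bud in 282 of 560 chains (50.4%) in Ad-GFP and in 427 (76.3%) in Ad-IκBαΔN. Between viruses it was the same in 516 chains (92.1%) with Bud and in 272 (48.6%) with IL1B+Bud. In the BIRC3 chain, for example, it passed from the member 11.0 kb upstream to the one at the TSS, and in that of NFKBIA it stayed at the TSS member. These counts compare members within a group, so a change in the scale of a group leaves them as they are.

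Motifs were searched on both strands of each region. A GRE with at most 2 mismatches in the 12 fixed bases of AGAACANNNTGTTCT was found in 11.9% of members (Wilson 95% interval 10.6% to 13.4%), in 15.4% of regions outside chains (14.6% to 16.2%) and in 2.52% of windows of the same length 5 kb away. A κB motif was found in 18.6% (17.0% to 20.4%), 22.0% (21.1% to 22.9%) and 3.69%. The AP-1 motif TGACTCA, which reads TGAGTCA on the other strand, was found in 23.7% (21.9% to 25.6%), 22.5% (21.7% to 23.4%) and 6.81%. Over all regions the shares were 14.7%, 21.3% and 22.8%. The window shares above are also over all regions. Windows of members had 3.54%, 3.95% and 7.24%, and windows of regions outside chains 2.29%, 3.63% and 6.71%. The intervals cover counting error only, and those of members and other regions did not overlap for the GRE and the κB motif. Chains held no GRE in 355 cases, 1 in 164 and more in 41, and no κB motif in 291, 1 in 177 and more in 92. Most members held neither motif, which says only that these letters are not in the 400 bases.

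Within chains the motif of a member went with its response. In the 262 chains with both kinds of member, those with a κB motif had a lower Bud level in Ad-GFP than those without, by a median of -0.96 log2, and a higher log2 difference for added IL1B, by 1.35, above 0 in 213 chains. In Ad-IκBαΔN the latter was 0.28. The IL1B+Bud level of κB members in Ad-GFP was higher by only 0.30, above 0 in 162 chains and below in 100. In the 205 chains with GRE and other members, GRE members had a higher Bud level by 0.57, in 139 chains, and a lower difference for added IL1B by -0.88, below 0 in 154. In Ad-IκBαΔN that was 0.02. For AP-1, over 344 chains, these medians were 0.08 and 0.12. Untreated levels differed by 0.02 for κB and -0.06 for GRE members. Members of a chain share their surroundings, so these differences are not those between loci. A selection of regions through their IL1B+Bud signal in Ad-GFP could also enter the κB difference, which was not tested. By class, κB motifs stood in 36.4% of increasing and 2.81% of decreasing members and GREs in 6.11% and 17.8%.

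**Figure D5:**
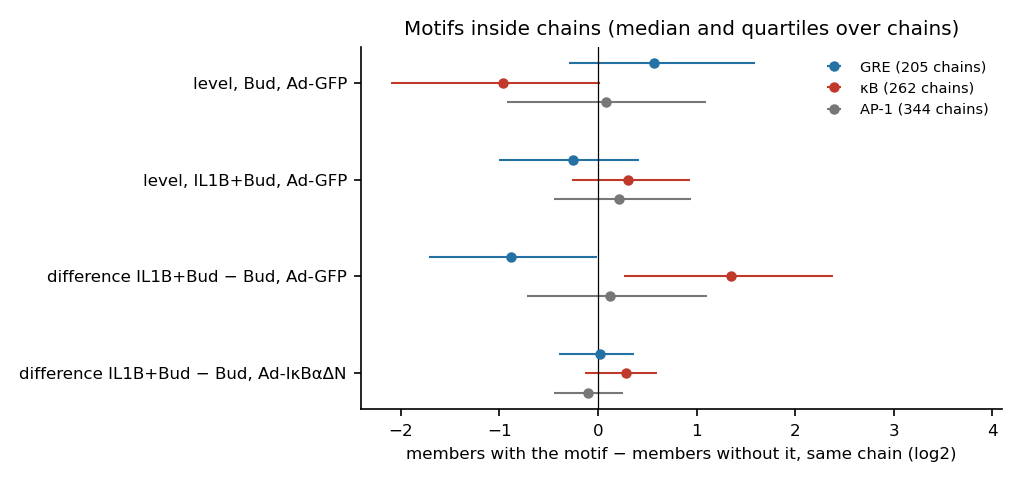
Members with a motif minus members without it in the same chain (log2, horizontal axis), for the level with Bud, the level with IL1B+Bud and the response to added IL1B; points are medians and bars quartiles over chains, not an error. For the response in Ad-GFP the κB median is 1.35 and the GRE median -0.88, and in Ad-IκBαΔN they are 0.28 and 0.02.

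Genes of the pathways were then followed through their chains. The NF-κB-dependent inflammatory list has 56 genes, of which 13 had regions in chains, 53 in all in 13 chains, and 49 of these were higher with added IL1B in Ad-GFP and 0 lower, with a median of 3.35. Its 66 regions outside chains had 57 higher, 0 lower and a median of 3.19. Feedback or shared targets, such as NFKBIA, TNIP1 and IRAK2, had 62 regions in 14 chains, 45 higher and 2 lower with a median of 2.57, against 17 of 19 higher and 3.21 outside. Glucocorticoid-induced genes had 80 regions in 23 chains, 28 higher and 7 lower with a median of 0.27, against 23 and 12 of 82 and -0.02 outside. Over all regions the median was 0.92, with 48.9% higher and 6.07% lower. For Bud against NS in Ad-GFP the same lists had 14 of 53, 34 of 62 and 62 of 80 regions in chains higher, against 57.9% of all regions, and the feedback count is near that share. Lung epithelial genes had 18 regions in 6 chains, 9 higher and 3 lower with added IL1B, near the share of 48.9% higher over all regions. AP-1 and immediate early genes had 4 regions, housekeeping genes 3 and markers of other cell types 0.

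Some chains are copies of others, and their reads may be shared between them. Of the members, 50 (2.37%), in 16 chains, had at least 50% of their words of 40 bases in common with another region, and 9 chains held only such members. The chains of DGCR6, LRRC74B and FAM246A lie in repeated sequence on chromosome 22. They share a region with these 80 bases, the same at chr22:18830961-18831040 (plus strand), chr22:21145027-21145106 (minus) and chr22:21265426-21265505 (plus).
DGCR6, LRRC74B and FAM246A chains: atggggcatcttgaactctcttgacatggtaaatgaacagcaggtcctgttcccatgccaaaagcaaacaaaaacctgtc
In Ad-GFP its 3 copies had 2.65, 2.37 and 4.79 untreated, 136, 142 and 128 with Bud and 23.9, 36.9 and 30.1 with IL1B+Bud. In Ad-IκBαΔN they had 108, 109 and 104 with Bud and 119, 106 and 106 with IL1B+Bud. The log2 differences for added IL1B in Ad-GFP were -2.46, -1.92 and -2.05, and the DGCR6 and FAM246A chains, with low medians of -1.20 and -1.33, are not independent of each other. The GATD3 chain on chromosome 21, with a median of 4.92, has a copy of each of its 4 members in a chain linked to TPTE on the same chromosome. Its Bud signals were 2.04, 1.55, 0.55 and 0.14 and its untreated ones 2.60, 0.12, 2.46 and 5.39, so its folds rest on little signal. On chromosome 17 a repeat near TMEM106A and CCDC200 (43233636 to 43300276), chosen after its values were seen, holds 12 members in 2 chains that all share sequence. They had 29.0 to 45.1 untreated, 62.9 to 99.4 with Bud and 125 to 190 with IL1B+Bud in Ad-GFP. Without the members that have a copy, the intraclass correlation for added IL1B in Ad-GFP was 0.42.

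Among the chains with the widest ranges were 2 near TCIM and MYC. TCIM encodes a regulator of Wnt signalling, and 4 of its 6 members were higher with added IL1B, the strongest with 4.97 with Bud and 452 with IL1B+Bud. MYC encodes a growth-promoting transcription factor, and 10 regions more than 100 kb from its TSS formed a chain with 6 members higher and 1 lower. Its ninth member had signals of 10.5 untreated, 10.1 with Bud and 355 with IL1B+Bud in Ad-GFP, while Ad-IκBαΔN cells had 9.38, 12.3 and 27.0. Its first, with a GRE, had 5.90, 80.9 and 34.8, and 8.92, 62.7 and 56.8. The chain's median of 1.19 was -0.36 with the steps divided out. FGL1, a gene of a liver-secreted protein, had a chain of the same make on a small scale. Members with 280 and 361 with Bud had 162 and 224 with IL1B+Bud, and the third had 4.09 and 58.6. The fold of the third rests in part on a Bud signal below the untreated one of 14.4.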

How the data were processed

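The values are the authors' deposited log2 binding intensities, 1 per region, virus and treatment. The way in which each group's 2 libraries became 1 value, their depth and the scaling are not given in the sources used here. Per the submitters' processing notes, the tools were DiffBind 3.2, MACS2 2.2.7.1, SAMtools, Bowtie2 2.4.4, FastQC 0.10.1 and bcl2fastq, and the build GRCh38 (hg38). From the values, 2 raised to the value minus 1, times 400 bp, fell on whole steps of 1 in 3 groups, 3 in Ad-GFP with IL1B+Bud and 1.5 in Ad-IκBαΔN with IL1B+Bud, and on none in untreated Ad-IκBαΔN. The authors' deposited log2 differences from untreated cells are the differences of these intensities and were not used separately.

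Chains, log2 differences, intraclass correlations and motif searches were computed with Python 3.11.15, numpy 2.4.6, pandas 2.3.3 and scipy 1.17.1, and figures with matplotlib 3.10.9. Chain building, calling and the intraclass correlation were tested on simulated data. Genes are protein-coding genes of GENCODE 44, with lists linking a region to the nearest TSS within 100 kb. Named chains are the 10 with most members (shorter span first in ties), the 5 highest and 5 lowest medians for added IL1B in Ad-GFP, the 5 highest for Bud, the 4 widest ranges and up to 6 per gene list with 3 or more linked members. The members, lists and this rule were chosen with earlier results of these data known. With 1 value per group no test was planned or made. The series also has libraries for RELA and input, which are not analysed here.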

Additional observations from a re-analysis of the deposited data

Results flagged for a closer look

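Among named chains whose Ad-GFP median for added IL1B was past 2-fold, that of ZC3H12A had medians on opposite sides of 0 in the viruses under every scaling of the groups. The median log2 difference was 1.90 with Ad-GFP but -0.14 with Ad-IκBαΔN. These contrasts of viruses were not tested, since each group has 1 value per region. Leaving out the 25% of regions whose mean signal was lowest took the Ad-GFP median to -0.14 as well. The LTBR chain, under 2-fold in Ad-GFP at -0.57, had the opposite sign in Ad-IκBαΔN, 0.59, and kept this contrast under every scaling and without those regions. Its Ad-IκBαΔN median was only 0.03 at the lowest of these settings, and its Ad-GFP median was highest as deposited.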

How the results depend on the processing

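Of 116 alternatives for the values of comparisons, 86 stayed within 1.5 times the reported value and 30 moved further. The 2114 members became 702 with a largest distance of 5 kb, 4536 with pairs kept and 1094 with chains of 4 or more. After re-centring, members at least 2-fold higher with Bud than untreated were 31.1% with Ad-GFP and 27.9% with Ad-IκBαΔN, those higher with added IL1B in Ad-IκBαΔN 3.93%, and those lower in Ad-IκBαΔN than Ad-GFP at IL1B+Bud 26.0%. Quantile normalization gave 25.1%, 24.2%, 0.568% and 24.5% for the same, 25.7% for added IL1B in Ad-GFP and 0.0946% higher in Ad-IκBαΔN than Ad-GFP at Bud. With the unchanged class as centre, the Bud shares were 19.5% and 15.9% and that for added IL1B in Ad-IκBαΔN 4.59%. With the steps divided out, added IL1B gave 26.8% with Ad-GFP and 0.331% with Ad-IκBαΔN, and the viruses at IL1B+Bud 24.0% lower. For added IL1B in Ad-IκBαΔN and the viruses at Bud, the shares were 4.47% and 1.05% without the 25% of regions lowest in mean signal, 23.7% and 10.4% at 1.5-fold, and 0.236% and 0.142% at 3-fold. A GRE with at most 1 mismatch stood in 2.93% of members. With class medians taken off, a choice made after seeing the data, as were the removal of copies and the pairs by distance, the intraclass correlation was 0.0899 for Bud and 0.14 for added IL1B in Ad-GFP, 0.11 for added IL1B in Ad-IκBαΔN and 0.17 between viruses at IL1B+Bud. Of 398 alternatives for named chains 280 kept their value within the spread of members, 112 moved and 6 turned the sign of a median past 2-fold for added IL1B in Ad-GFP. Those were ERRFI1 at -0.40, PHLDA1 at -0.23, DUSP1 at -0.53, TNS3 at -0.19 and MYC (10 members) at -0.36 with the steps divided out, and ZC3H12A at -0.14 without the regions lowest in mean signal. No paired analysis was possible because the values hold 1 number per group and no replicate, and for the same reason no replicate could be left out. Library depth was not given, so counting error per region is unknown.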
